A study of Mus musculus with 27 samples.

Results

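Retinas of C57BL/6J mice were compared at postnatal day 15 (P15) and postnatal day 6 (P6), an interval that takes in outer segment growth, synapse formation and eye opening. Of the 27 libraries of the series, which covers 7 ages, 7 entered this comparison: 3 at P6 and 4 at P15. Each of these 7 libraries held total RNA of retinas pooled from mice of 1 age, with an n of 3 per library in the labels. Mice of both groups were wild type males of this inbred strain with no transgene, deletion or treatment named, kept on a light and dark cycle, and their retinas were taken in the afternoon. No source says whether libraries of an age came from separate litters. The p-values rest on a spread estimated within ages over all 27 libraries, not on the P6 and P15 pools alone. By the methods of the study, most of these were pools, but some at the oldest age were single mice. Those of embryos and newborns were of mixed sex. The spread between single mice at P6 or P15 was thus not measured. Values are CPM, the reads of a gene scaled to the total of its library and not to the length of the gene, so levels were compared between ages for 1 gene and not between genes.

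The retina is a layered sheet of neurons in which rods and cones turn light into a change of membrane voltage. They pass it at ribbon synapses to bipolar cells, which contact ganglion cells, while horizontal and amacrine cells shape the signal sideways and Müller glia span all layers. In the mouse, cell division ends in the days before and around P6, and photoreceptors then extend outer segments, the membrane stacks that hold the visual pigment. The dendrites of bipolar cells reach the photoreceptor terminals in the same period, vessels grow into the deeper layers, and the eyelids open shortly before P15. Because whole tissue was measured, a lower value can come from fewer cells of a type or from less RNA in each cell, and these cannot be told apart here.

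Reads counted in the table ranged from 7076646 to 9245082 per library at P6 and from 7274097 to 8216083 at P15, so 1 read was worth about 0.1 CPM. P15 replicate 4 stood apart from the other P15 libraries. Its correlation with them on the log2(CPM + 1) scale was 0.977 to 0.981 over the 31760 features tested. The highest correlation among the other 3 was 0.988, and the P6 libraries gave 0.987 to 0.989. These values share the features and are given as a description. Replicate 4 lay at least 2-fold from the mean of the other 3 in 427 features, 133 above and 294 below, where the other P15 libraries gave 43 to 89. Its difference from the other P15 libraries also moved with the GC content of the transcript, a value that 87.0% of tested features having a Gene ID had. The median difference ran from -0.14 (log2) among the 3467 features with the lowest GC content to 0.15 among the 3466 with the highest. Reads of P15 replicate 4 differed from each other P15 library by a chi-square of 4.99 to 7.49 per degree of freedom, against 1.69 to 2.31 among the other 3, so no 2 of these libraries were copies of each other. Its part in the results was addressed by leaving it out, which gave 2577 changed features in place of 2558 and 413 called list genes in place of 423. The sets were not the same, as 2343 of the 2558 features changed again without it.

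**Figure D1:**
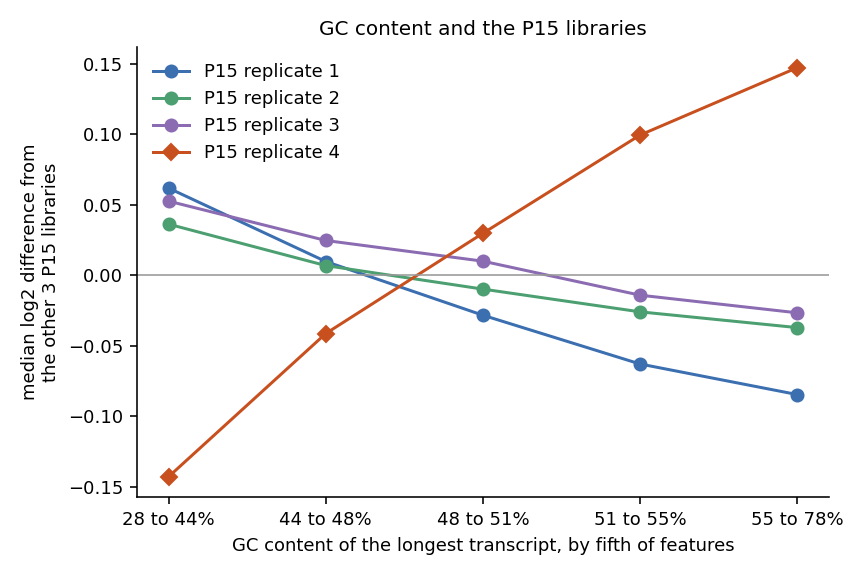
The horizontal axis gives 5 equal groups of features by GC content of their longest transcript (percent), and the vertical axis the median log2 difference of 1 P15 library from the mean of the other 3. Replicate 4 (diamonds) climbs from -0.14 to 0.15 while replicates 1 to 3 (circles) slope the other way by less, in part because replicate 4 is in the mean they are set against.

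Retinal genes were present at both ages, and markers of neighboring tissue were low. Of the markers of the retinal pigment epithelium (RPE), 3 of 10 tested rose, and their summed level was 33.4 to 51.3 CPM at P6 and 56.1 to 91.9 CPM at P15. Lrat, the enzyme that esterifies retinol, was 0.565, 0.649 and 0.689 CPM at P6 and 8.3, 16.2, 12.7 and 13.3 CPM at P15, and Rpe65, the retinoid isomerase, was 1.27, 1.41 and 0.276 and 4.28, 10.3, 5.48 and 6.19 CPM. The pigment genes Tyr (2.78 and 2.94 CPM), Tyrp1 (2.84 and 1.48 CPM), Dct and Pmel were not called. Lens markers summed to 9.93 to 14.0 CPM at P6 and 11.9 to 13.5 CPM at P15, hemoglobin and other blood genes to 39.8 to 50.6 and 27.9 to 34.4 CPM, and genes of cornea, muscle and connective tissue to 6.48 to 7.35 and 8.30 to 11.7 CPM. Of the latter 3 lists, 2 genes rose, Cryga (0.98) and Ckm (0.91), and 2 fell, among them Hba-a1 (-1.42), a gene with a nearly identical copy whose reads may be split. Markers of astrocytes and oligodendrocytes, which enter with the optic nerve, summed to 75.9 to 93.2 CPM at P6 and 55.6 to 66.9 CPM at P15, with 1 of 9 risen and 5 fallen. The part of these tissues in the results below was not tested.

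Between P6 and P15, 2558 of 31760 features changed, which here means an adjusted p under 0.05 in limma and a change of at least 2-fold on the log2(CPM + 1) scale. These were 8.05% of the features, 1506 (4.74%) higher and 1052 (3.31%) lower at P15. By the adjusted p alone, 10610 features (33.4%) were called, 4573 (14.4%) higher and 6037 (19.0%) lower. The median over all features was -0.06, so changes below are relative to a slight shift downward. With median-of-ratios scaling that median was -0.0034 and the split of calls by adjusted p was 5140 higher and 4819 lower. The step before, from P1 to P6, had 2000 features higher (6.30%) and 2141 lower (6.74%) by at least 2-fold, and the step after, from P15 to P28, had 52 (0.164%) and 70 (0.220%). These steps share the P6 or the P15 libraries with the present comparison and are given for scale.

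Within 40 lists of genes of retinal cells, synapses, development and metabolism, 618 of 655 genes could be tested and 423 were called, 246 higher and 177 lower. In this text a gene rose or fell when its adjusted p was under 0.05. Among features with a Gene ID, the group most list genes belong to, 16.7% rose and 23.3% fell, 5.45% and 3.80% by at least 2-fold. These shares are given for scale beside the list counts below. The members and lists were chosen with earlier results of these data known, so a list count above a share is a description and not a test. Libraries of the ages did not overlap in 20.2% of these features with P15 higher and in 28.3% with P15 lower. A fold change is the difference of mean log2(CPM + 1), P15 minus P6, given with its standard error (SE) where 2 values are joined by ±, and means are given with the SD over 3 libraries at P6 and 4 at P15. All adjusted p-values are from limma over all features.

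**Figure D2:**
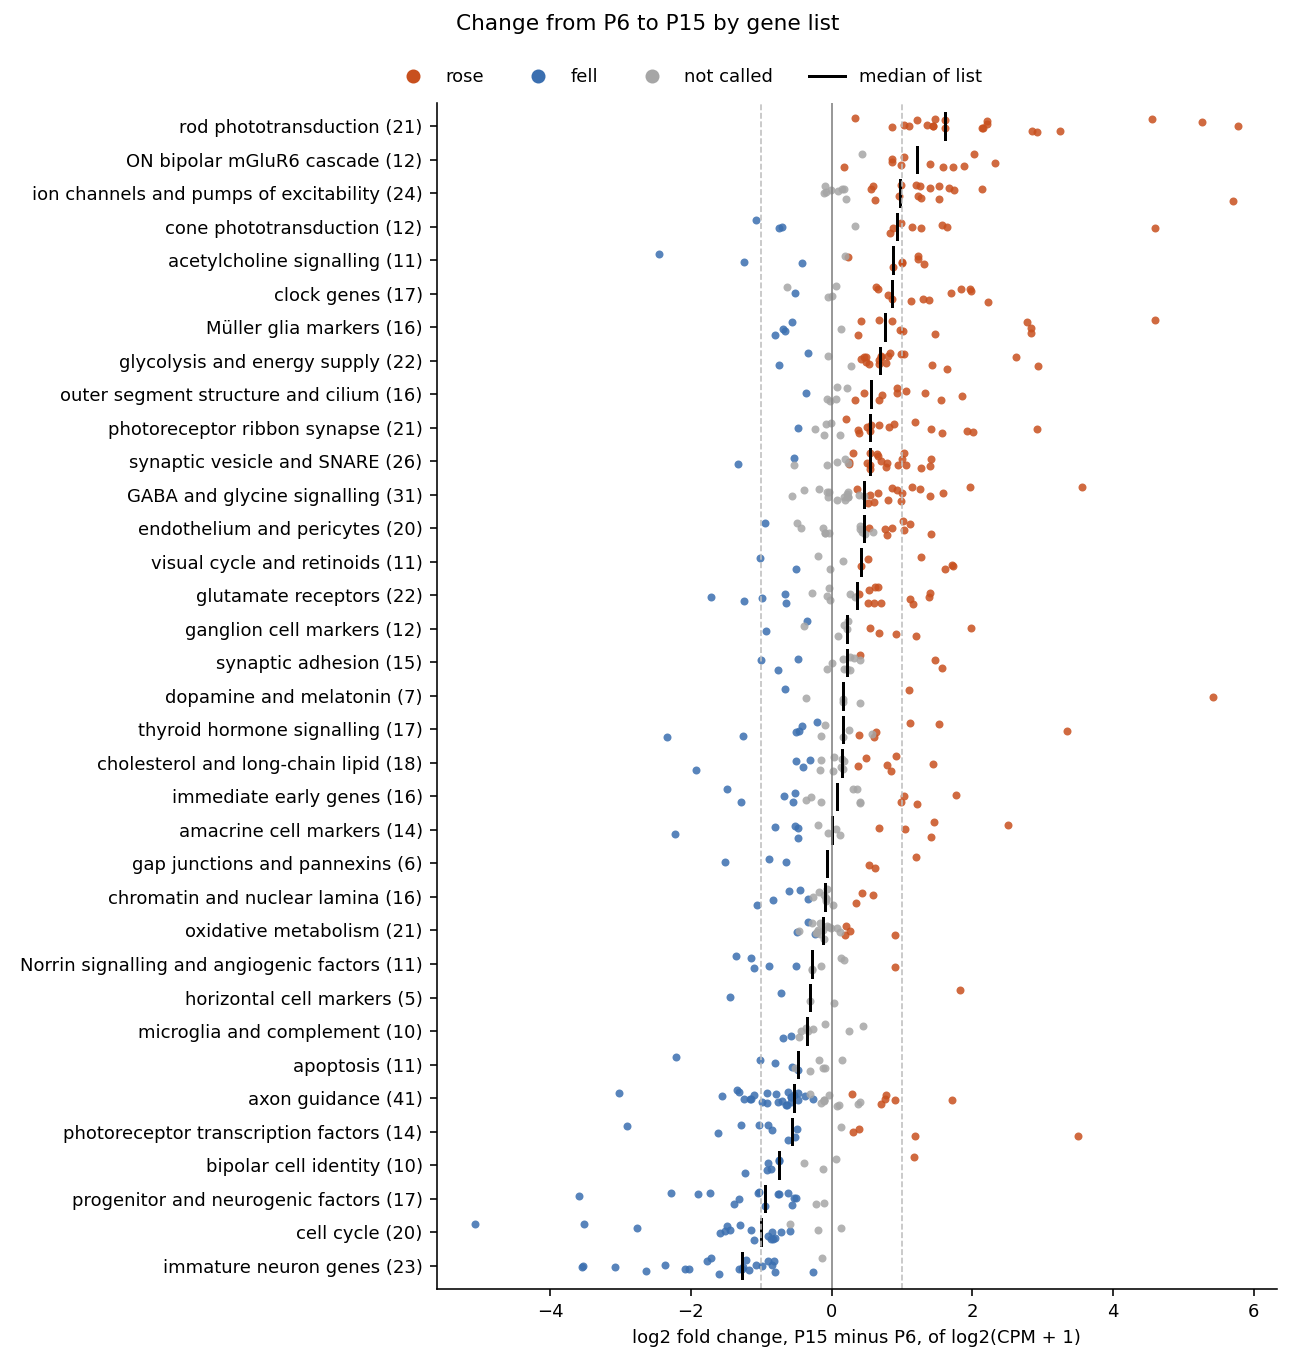
Each row is a gene list with the number of genes tested, and each point a gene at its log2 fold change from P6 to P15 (horizontal axis, log2(CPM + 1) scale; dashed lines mark 2-fold). Orange genes rose, blue genes fell and gray genes were not called; black bars are list medians, from -1.27 for immature neuron genes to 1.62 for rod phototransduction.

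The largest rises among genes with a Gene ID included photoreceptor and glial genes. Gnat1, the rod transducin alpha subunit, was 88.3, 44.7 and 92 CPM in the P6 libraries and 4088, 3914, 3877 and 4085 CPM in the P15 libraries. Every P15 value was above every P6 value, the means differed 53.2-fold, and the fold change was 5.79 ± 0.20 (adjusted p = 3.8e-20). Kcnj14, an inward rectifier potassium channel, was 1.41, 0.324 and 1.1 CPM at P6 and 85.7, 105, 92.5 and 109.7 CPM at P15, low in each P6 library and high in each P15 library. Drd4, the D4 dopamine receptor, which photoreceptors use to respond to dopamine from amacrine cells, went from 1.41, 0.541 and 2.07 to 105, 97.2, 89.7 and 90.6 CPM. The fold changes were 5.71 ± 0.16 for Kcnj14 and 5.42 ± 0.20 for Drd4, and the groups did not overlap. The rest of the first 10 were A930014D07Rik (5.64), Pdzph1 (5.55), A930025A13Rik (5.39), Guca1b (5.26), Zan (4.68), Aqp4 (4.60) and Opn1mw (4.60). Pdzph1 had 6.52 ± 1.6 CPM at P6 and 347 ± 14 CPM at P15.

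The largest falls included genes of dividing cells and young neurons. Mki67, the proliferation antigen Ki-67, was 51.4, 71.3 and 72.1 CPM at P6 and 1.07, 0.79, 1.46 and 0.55 CPM at P15, and fell by 67.1-fold in the mean (fold change -5.07 ± 0.32). Fabp7, a fatty acid binding protein of progenitors and immature glia, fell from 59.3 ± 10.1 to 1.99 ± 0.344 CPM. H19, an imprinted long noncoding RNA, fell from 37.6 ± 6.27 to 1.53 ± 0.702 CPM, and Mex3a, an RNA-binding protein, from 132 ± 16.9 to 7.98 ± 0.969 CPM. A pair of transcripts of unknown role was near or at 0 at P15: AA623943 was 9.89, 11.5 and 10.8 CPM at P6 and had no read in any P15 library, at least 27.2-fold lower when 3 reads per library are taken as the floor, and Gm11546 was 14.7, 15.9 and 18.3 CPM at P6 with 1 read in all P15 libraries together. Others of the 10 were 3110035E14Rik (-3.92), Tubb2b (-3.54) and Cd24a (-3.54).

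**Figure D3:**
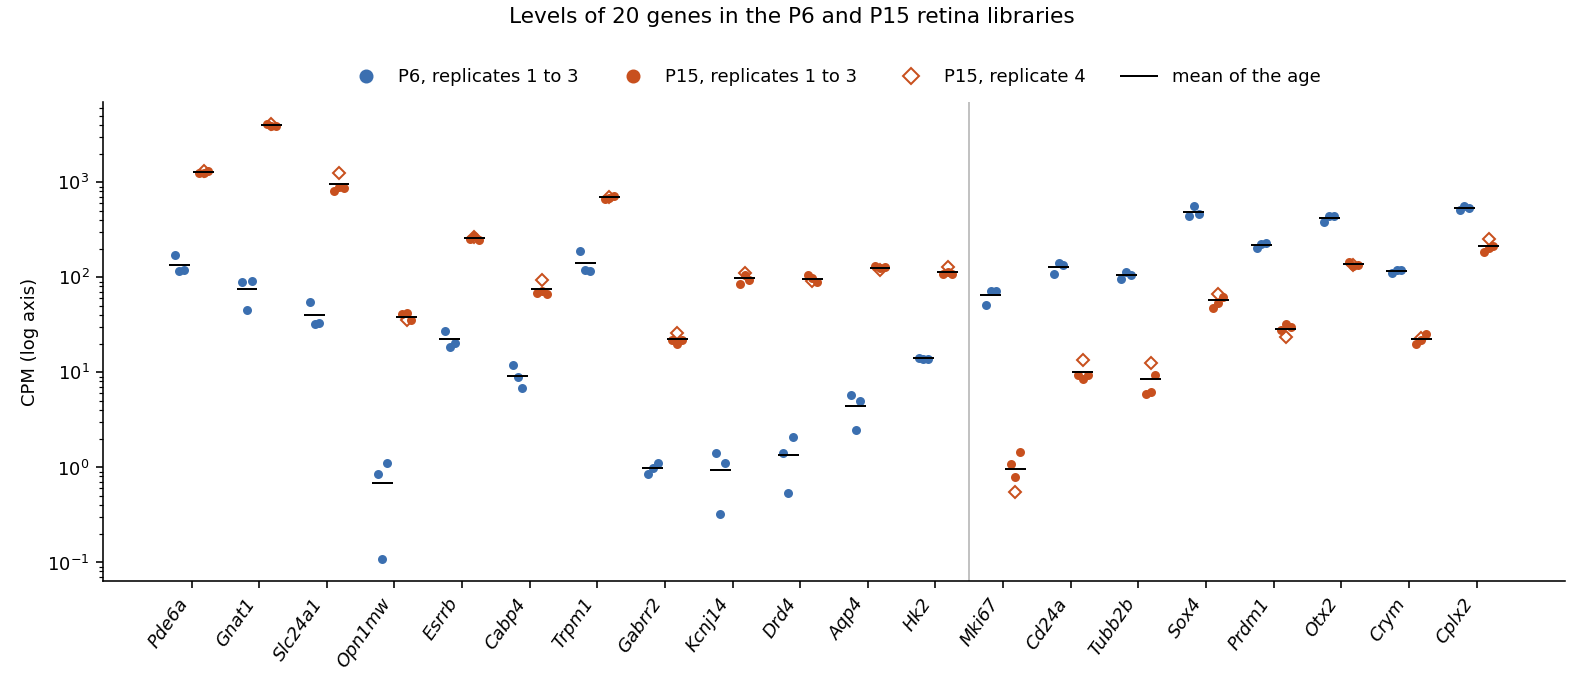
The vertical axis gives CPM on a log axis for 20 genes in each library; blue points are P6, orange points P15 replicates 1 to 3, open diamonds P15 replicate 4, and bars the mean of the age. For the 12 genes left of the line each P15 library lies above each P6 library, and for the 8 genes right of it each lies below. Replicate 4 is the highest P15 library for several genes on both sides, among them Slc24a1, Cabp4, Tubb2b, Sox4 and Cplx2. It is the lowest for others, such as Aqp4, Mki67 and Prdm1.

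All 21 genes tested of the rod phototransduction cascade rose, 19 of them by at least 2-fold, with a median fold change of 1.62. Gnat1, whose values are given above, had the largest fold change of the list. The catalytic phosphodiesterase subunits, which transducin activates, moved unequally: Pde6a went from 171, 117 and 120.1 to 1259.6, 1260.0, 1299 and 1303 CPM (3.25 ± 0.18), and Pde6b from 632, 524 and 556 to 969, 992, 997 and 1194 CPM (0.86 ± 0.14). Both rose with no overlap between ages. Slc24a1, the sodium, calcium and potassium exchanger that removes calcium from the rod outer segment, was 55.2, 32.1 and 33.4 CPM at P6 and 806, 892, 871 and 1248 CPM at P15, highest in P15 replicate 4, and its fold change was 4.42 without that library. The calcium sensors of guanylate cyclase Guca1b (4.92 ± 1.51 to 222 ± 25.8 CPM) and Guca1a (2.97 ± 0.741 to 27.5 ± 3.5 CPM), which restore cGMP after a flash, rose as well. Among genes of shutoff, the opsin kinase Grk1 (2.14) and recoverin Rcvrn (2.15) had fold changes above the list median of 1.62. The arrestin Sag (1.36) and the GTPase accelerator Rgs9 (1.21) were below it. The least change was in Pdc, phosducin, at 1318 ± 73 CPM at P6 and 1666 ± 129.6 CPM at P15 (adjusted p = 0.014), a call lost without P6 replicate 3.

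Promoter sequence was examined for letters read by photoreceptor transcription factors, since rod genes moved together. The 250 bases before the first listed RefSeq transcription start (GRCm38.p6) were searched on both strands for TAATCC, the core read by CRX and OTX2, for TGCTGA, which is part of the NRL site, and for AGGTCA, a core of nuclear receptor sites. TAATCC was present in 6.38% of the 27025 promoters of the table, in 9.60% of the 698 with an entry among genes higher at P15 by at least 2-fold and in 4.38% of the 457 among those lower. It was in 8 of the 14 rod phototransduction promoters with an entry (57.1%), 2 of 14 for outer segment genes, 1 of 17 for the photoreceptor ribbon synapse and 2 of 11 for the ON bipolar cascade. AGGTCA was in 13.8% of all promoters and 6 of 14 rod promoters (42.9%), and TGCTGA in 15.8% and 3 of 14 (21.4%). AGGTCA was not raised in the rod list alone, with 5 of 17 for the ribbon synapse (29.4%) and 3 of 11 for the ON bipolar cascade (27.3%). It was in 2 of 14 for outer segment genes, 2 of 19 for synaptic vesicle genes and 1 of 14 for immature neuron genes. Among the 12461 promoters of genes tested, TAATCC was present in 5.43%, TGCTGA in 13.2% and AGGTCA in 10.9%. A match is only a description of letters in this window. For the ribbon synapse, the genes with the largest rise that had an entry were Slc17a7, with no match, and Mpp4, with TGCTGA alone, and these are not printed. The promoters below are those of the rod and ON bipolar genes with the largest rise that had an entry, and capitals mark the matches, GGATTA being TAATCC on the other strand.
Slc24a1 (chr9:64951621-64951870, minus strand, no match): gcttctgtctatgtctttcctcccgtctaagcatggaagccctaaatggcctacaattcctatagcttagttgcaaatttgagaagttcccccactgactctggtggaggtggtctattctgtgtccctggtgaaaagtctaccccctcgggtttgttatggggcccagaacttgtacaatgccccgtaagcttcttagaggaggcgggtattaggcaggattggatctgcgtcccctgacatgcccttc
Guca1a (chr17:47400607-47400856, minus strand): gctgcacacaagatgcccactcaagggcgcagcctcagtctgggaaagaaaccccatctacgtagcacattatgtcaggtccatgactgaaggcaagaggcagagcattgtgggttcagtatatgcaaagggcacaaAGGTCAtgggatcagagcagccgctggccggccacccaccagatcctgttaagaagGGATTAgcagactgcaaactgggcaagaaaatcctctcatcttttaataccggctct
Trpm1 (chr7:64153585-64153834, plus strand): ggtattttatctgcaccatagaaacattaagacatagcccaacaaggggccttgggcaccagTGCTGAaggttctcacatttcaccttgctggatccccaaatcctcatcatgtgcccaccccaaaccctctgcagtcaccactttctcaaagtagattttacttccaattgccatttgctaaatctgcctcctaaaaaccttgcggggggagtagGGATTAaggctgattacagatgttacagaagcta
Cabp5 (chr7:13397905-13398154, plus strand): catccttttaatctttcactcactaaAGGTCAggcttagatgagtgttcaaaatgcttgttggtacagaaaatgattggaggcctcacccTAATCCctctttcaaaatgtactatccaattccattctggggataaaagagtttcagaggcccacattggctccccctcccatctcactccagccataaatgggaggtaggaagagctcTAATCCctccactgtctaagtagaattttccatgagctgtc
Guca1a held AGGTCA starting 113 bases before the start and TAATCC on the minus strand at 57 bases, Trpm1 held TGCTGA at 188 bases and TAATCC on the minus strand at 34, and Cabp5 held AGGTCA at 224 bases and TAATCC at 160 and 41.

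Of 12 cone phototransduction genes, 8 rose and 3 fell. Opn1mw, the middle wavelength opsin, was 0.848, 0.108 and 1.1 CPM at P6 and 41.5, 41.7, 35.2 and 35.7 CPM at P15, a change of 4.60 ± 0.19. Opn1sw, the short wavelength opsin expressed earlier in development, was already 52.7, 44.3 and 43.2 CPM at P6 and 103, 98.5, 86.9 and 85.1 CPM at P15 (0.99 ± 0.14). Thus both opsins rose with separate groups, Opn1mw from under 2 CPM in each P6 library and Opn1sw by 2.0-fold in the mean. Arr3, cone arrestin, rose from 26 ± 1.44 to 83.7 ± 6.59 CPM, and the cone transducin Gnat2 (1.14), the phosphodiesterase subunits Pde6c (0.83) and Pde6h (1.27) and the exchanger Slc24a2 (1.57) rose too. The transducin gamma subunit Gngt2 fell from 13.8, 11.7 and 14.2 to 7.9, 4.48, 5.35 and 5.64 CPM and the channel subunit Cngb3 from 55.1, 57.5 and 64.7 to 35.6, 33.7, 35.7 and 33.8 CPM, again with no overlap. Gnb3, the beta subunit that cones share with ON bipolar cells, had a fold change of -0.70 ± 0.23 (adjusted p = 0.016), a call lost with DESeq2 and without P6 replicate 1 or 2. The channel subunit Cnga3 was not called (0.34, adjusted p = 0.085) except with median-of-ratios scaling, in edgeR, in DESeq2 and in the 7 libraries alone.

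Genes that build the outer segment and its cilium rose in most cases. Of 16 tested, 10 rose, 4 of them by at least 2-fold, and 1 fell, with a median of 0.57. Abca4, the flippase that clears retinoid from the discs, was 243, 209 and 207 CPM at P6 and 783, 795, 778 and 831 CPM at P15. Prph2, the peripherin that bends the disc rim, went from 612, 531 and 539 to 1405, 1379.9, 1382 and 1477 CPM, and its partner Rom1 from 208 ± 11.2 to 398 ± 43.4 CPM. Levels of the disc morphogenesis genes Prom1 (612 ± 31.2 and 636 ± 19.8 CPM) and Cdhr1 (488 ± 13.1 and 479 ± 19.5 CPM) overlapped between ages and were not called. The axoneme genes Fam161a (1.55) and Rp1 (0.34) rose, as did Impg1 (1.07), a proteoglycan of the matrix around the outer segments, while its relative Impg2 fell (-0.37 ± 0.12, a call lost without P6 replicate 1). In the visual cycle and retinoid handling, 6 of 11 rose and 2 fell. The photoreceptor dehydrogenases Rdh12 (88.3 ± 15.9 to 292 ± 29.2 CPM) and Rdh8 (11.1 ± 1.84 to 35.7 ± 2.87 CPM), which reduce the spent chromophore, rose, with Dhrs3 (1.27) and Rgr (1.72), an opsin also expressed by the RPE, whose summed markers were higher at P15 as given above. The retinol dehydrogenase Rdh10 (-0.50) was among those that fell.

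More transcription factors of photoreceptors fell than rose. Of 14 tested, 4 rose and 9 fell. Prdm1, which keeps photoreceptor precursors from the bipolar fate, was 201, 226 and 228 CPM at P6 and 27.6, 32.1, 29.7 and 23.6 CPM at P15 (-2.91 ± 0.11). Otx2, needed to start the photoreceptor and bipolar programs, was 385, 439 and 443 and 146, 130.4, 136 and 133 CPM (-1.62 ± 0.07). Crx, the homeodomain factor of both photoreceptor types, fell less, from 1474 ± 22.7 to 1030.2 ± 28.4 CPM, and Nr2e3, the rod factor that silences cone genes, fell from 666 ± 14.8 to 273 ± 29.3 CPM. Esrrb, a nuclear receptor of rods, was the exception in size: it was 27.4, 18.5 and 20.5 CPM at P6 and 251, 274, 248 and 264 CPM at P15, 11.7-fold higher in the mean. Mef2c (1.19), Nrl, the rod determinant (299 ± 2.95 to 371 ± 8.69 CPM), and Thrb, the thyroid hormone receptor whose isoforms these values do not separate (118 ± 5.84 to 155 ± 5.24 CPM), rose. Rxrg (-1.04), a cone nuclear receptor, Neurod1 (-0.84), Rorb (-0.61), Samd7 (-0.91) and Samd11 (-0.49) fell, and Mef2d was not called (0.13).

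At the photoreceptor ribbon synapse, 15 of 21 genes rose and 1 fell, with a median of 0.55. Cabp4, the calcium binding protein that tunes the presynaptic calcium channel, was 11.9, 8.87 and 6.89 CPM at P6 and 68.9, 72.3, 66.7 and 92.6 CPM at P15. It was highest in P15 replicate 4, and its fold change was 2.92 ± 0.19 with and 2.81 without that library. Cacna1f, the pore of that channel, went from 105, 81.9 and 92.5 to 243, 254, 236 and 263 CPM, and the auxiliary subunits Cacnb2 (0.89) and Cacna2d4 (0.55) rose less. Slc17a7, the vesicular glutamate transporter of photoreceptors and bipolar cells, rose from 141 ± 17.6 to 539.6 ± 25 CPM, Cplx4, a complexin of ribbon terminals, from 45.6 ± 7.42 to 185 ± 7.43 CPM, and Mpp4, a scaffold of the terminal, from 212 ± 28.4 to 625 ± 30.8 CPM. The ribbon and active zone genes split: Rims2 (307 ± 17.7 to 699 ± 36.9 CPM), Bsn (0.40), Pclo (0.21) and Unc13b (0.56) rose, and Ctbp2, whose RIBEYE product builds the ribbon, was 345, 352 and 329 CPM at P6 and 306, 309.6, 344 and 317 CPM at P15 and was not called. Rims1 (-0.07) and Erc2 (0.12) were not called either. Of the genes that align the terminal with bipolar dendrites, Lrit1 rose (0.68), Dag1, dystroglycan, fell (-0.47 ± 0.09), and Elfn1 (114 ± 7.62 and 114 ± 12.3 CPM) and Egflam (-0.24) were not called.

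On the other side of this synapse, ON bipolar cells read glutamate through the receptor mGluR6, which holds the channel TRPM1 closed in the dark. Of 12 genes listed for the cascade, which include the bipolar cell genes Cabp5 and Pcp2, 11 rose and none fell, with a median of 1.21. Trpm1 was 188, 119.7 and 115 CPM at P6 and 674, 686, 720.2 and 699 CPM at P15 (2.33 ± 0.18), and Grm6, which encodes mGluR6, was 163, 135 and 122 and 196, 187, 186 and 183 CPM. Trpm1 thus rose 4.92-fold in the mean with every P15 library above every P6 library. The Grm6 libraries were separate too, but its fold change of 0.43 ± 0.18 had an adjusted p of 0.068, which passed with median-of-ratios scaling, in edgeR, in DESeq2, in a fit of the 7 libraries alone and without P6 replicate 1. Cabp5 (25.7 ± 5.93 to 106 ± 2.64 CPM) and Pcp2 (1.89), a calcium binding protein and a G protein modulator of bipolar cells, rose, with the GTPase accelerators Rgs11 (1.59) and Rgs7 (0.99) and the anchors Lrit3 (1.40), Nyx (1.03) and Gpr179 (0.86). Of 10 genes listed as setting or marking bipolar identity, 6 fell and 1 rose. Among those that fell, Isl1, a homeodomain factor of ON bipolar cells, went from 326, 279 and 250.4 to 131, 142, 163 and 170.3 CPM, and Vsx1 (-0.86), Irx5 (-0.92), Lhx4 (-0.75) and Bhlhe22 (-0.74) fell as well. The member that rose was Scgn, secretagogin, a calcium binding protein of cone bipolar cells (11.8 ± 1.1 to 27.8 ± 2.25 CPM).

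Genes of the vesicle and its fusion machinery rose in most cases, 19 of 26, with 5 by at least 2-fold and a median of 0.54. Syt2, a fast calcium sensor of release, rose from 9.54 ± 0.838 to 27.3 ± 3.28 CPM, and Syn2, a synapsin, from 8.9 ± 0.306 to 23.2 ± 3.75 CPM. The complexins of conventional synapses moved apart: Cplx1 was 16, 19.6 and 19.2 CPM at P6 and 43.4, 38.7, 47.7 and 75.9 CPM at P15, and Cplx2 was 509, 562 and 530.3 and 183, 201, 214 and 256 CPM. Cplx1 was higher in every P15 library and Cplx2 lower, with P15 replicate 4 highest for both, and the fold changes without it were 1.20 and -1.42. Snap25 rose little (877 ± 11 to 1044 ± 60.8 CPM), and Syp, synaptophysin, was not called (342 ± 15.9 and 394 ± 62.2 CPM). Nrxn3, a presynaptic adhesion receptor that is not counted among the adhesion genes below, fell (-0.54). Among 15 synaptic adhesion genes, 3 rose and 3 fell, and with median-of-ratios scaling 6 rose. Cntn4 (27.8 ± 6.2 to 83.7 ± 5.02 CPM), Lrrtm4 (16.7 ± 0.839 to 48.4 ± 3.45 CPM) and Sdk2 (0.41) rose, and Nlgn1 (162 ± 4.24 to 81 ± 8.06 CPM), Dscam (-0.76), which spaces the arbors of ganglion and amacrine cells, and Cntn1 (-0.48) fell.

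Among 22 ionotropic and metabotropic glutamate receptors other than mGluR6, 11 rose and 5 fell. The NMDA receptor subunits did not move together. Grin2a was 22.9, 22.4 and 22.1 CPM at P6 and 58.1, 59.5, 67.8 and 55.8 CPM at P15, and Grin2b, its counterpart of earlier development, was 163, 170.1 and 156 and 161, 161, 158 and 159 CPM. Grin2a thus rose with separate groups (1.38 ± 0.21) and Grin2b overlapped (-0.03 ± 0.14, adjusted p = 0.9). The obligatory subunit Grin1 rose (34.5 ± 1.36 to 76.1 ± 7.32 CPM), as did Grm5 (1.16) and Grin2c (1.40, from a mean of 1.29 CPM). The kainate receptor Grik3 fell from 59.7 ± 6.18 to 17.4 ± 1.28 CPM, with Grik2 (-0.65), Grik4 (-0.66), Grm3 (-1.25) and Grm7 (-0.99).

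Of 31 genes of GABA and glycine signaling, 0 fell (3 in a fit of the 7 libraries alone, Glra2 among them) and 16 rose, 7 by at least 2-fold. Gabrr2, a rho subunit of the GABA receptor of bipolar terminals, was 0.848, 0.973 and 1.1 CPM at P6 and 21.9, 19.9, 21.8 and 25.8 CPM at P15, 22.9-fold higher in the mean. The related Gabrr1 was already 29.3 ± 6.36 CPM at P6 and reached 58.7 ± 5.94 CPM. Glra1, the glycine receptor subunit of fast inhibition, rose from 5.93 ± 0.928 to 26.2 ± 4.3 CPM, whereas Glra2, the subunit of immature neurons, was 21.5 ± 1.84 and 16.3 ± 3.05 CPM and not called. The chloride transporters that set the direction of the inhibitory current differed: Slc12a5, the exporter KCC2, was 112, 113 and 95.6 CPM at P6 and 307, 316, 319.9 and 342 CPM at P15, and Slc12a2, the importer NKCC1, was 78.3, 80.4 and 79.6 and 82.6, 77.7, 82.5 and 65.6 CPM. Slc12a5 rose with no overlap (1.58 ± 0.14), and Slc12a2 overlapped (-0.05 ± 0.10, adjusted p = 0.75). The enzymes of GABA synthesis Gad1 (1.0) and Gad2 (0.55) and the glycine transporters Slc6a5 (1.26) and Slc6a9 (0.93) rose.

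Of 11 genes of acetylcholine signaling, 7 rose and 3 fell, the latter all receptor subunits. Chrnb4 was 22.2, 22 and 22.8 CPM at P6 and 3.08, 3.16, 3.29 and 3.44 CPM at P15, and its partner Chrna3, the subunit of early retinal waves, was 19.1, 22.2 and 27.3 and 10.7, 10.01, 9.01 and 6.74 CPM. Both fell, Chrnb4 by 6.88-fold and Chrna3 by 2.51-fold in the mean, and Chrna4 fell by less (-0.41). Chat, which makes acetylcholine in starburst amacrine cells, rose from 3.5 ± 0.697 to 10.2 ± 1.75 CPM, and the subunits Chrna6 (1.22), Chrnb3 (1.24) and Chrna7 (1.01) and the choline transporter Slc5a7 (1.0) rose. In dopamine and melatonin signaling, 2 of 7 tested genes rose, Drd4 and the D2 receptor Drd2 (6.69 ± 2.25 to 15.2 ± 2.6 CPM), and the melatonin receptor Mtnr1a fell (-0.66 ± 0.24). The call of Mtnr1a was lost in edgeR, in DESeq2 and with a block for replicate number. It was also lost without P6 replicate 2 or 3 and without P15 replicate 1, 2 or 4. Th, the enzyme of dopamine synthesis, was at 0.743 CPM at P6 and 1.03 CPM at P15, too few reads to show a change.

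Channels and pumps of excitability held 16 rises and no fall among 24 genes, 11 by at least 2-fold. Beside Kcnj14, the sodium channel subunit Scn2b rose from 8.74 ± 1.83 to 41.6 ± 5.83 CPM and the pore subunit Scn1a from 35.5 ± 1.39 to 95.5 ± 3.54 CPM. Kcna1, a potassium channel of axons, was 18.8, 21.5 and 14.6 CPM at P6 and 57.6, 55.8, 54.2 and 48.2 CPM at P15. It rose with no overlap (1.52 ± 0.18), and Scn4b (1.66) and the sodium pump subunit Atp1b1 (1.26) rose. Gap junction genes were divided, 3 of 6 risen and 3 fallen. Gjd2, connexin 36 of rod pathways, rose from 41.3 ± 1.998 to 64.1 ± 3.58 CPM and Panx2 rose (1.20), Panx1 fell from 23.1 ± 1.54 to 7.5 ± 1.07 CPM, and Gjc1 (-0.88) and Gja1 (-0.65) fell, the last not in edgeR or with median-of-ratios scaling. Gja10, of horizontal cells, was called at an adjusted p of 0.031 (0.53), a call lost in 6 of the alternative settings.

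Markers of the other neuron classes did not share a direction. Of 14 amacrine cell markers, 5 rose and 5 fell. Slc17a8, the glutamate transporter of a class of amacrine cells, was 3.96, 3.46 and 2.21 CPM at P6 and 21.1, 18, 26.3 and 25.4 CPM at P15, and Npy, neuropeptide Y, was 20.9, 19.9 and 22.9 and 2.81, 4.48, 3.29 and 4.67 CPM. Slc17a8 rose and Npy fell, both with separate groups, and the transcription factors Tfap2a (-0.52) and Tfap2b (-0.48) fell while Calb2, calretinin, rose (1.04). Of 5 horizontal cell markers, Calb1, calbindin, rose (13.6 ± 2.56 to 50.4 ± 6.32 CPM) and Onecut2 (98.1 ± 4.43 to 35.5 ± 2.96 CPM) and Onecut1 (-0.72) fell. Among 12 ganglion cell markers, 5 rose, led by the neurofilament heavy chain Nefh (28.7, 19.7 and 22.1 CPM at P6 and 84.1, 75.9, 95.3 and 133 CPM at P15, highest in replicate 4), and 2 fell. Thy1 rose (1.20), Isl2 (-0.93) and Pou4f1 (-0.34 ± 0.11) fell, the latter not with median-of-ratios scaling or without P6 replicate 1 or 2, and Rbpms, which marks all ganglion cells, was 43.4 ± 2.97 and 46.2 ± 2.51 CPM and not called.

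Müller glia markers rose in 11 of 16 cases and fell in 4. Aqp4, the water channel of the glial end foot, was 5.79, 2.49 and 4.96 CPM at P6 and 130.0, 125, 129 and 118 CPM at P15. Glul, glutamine synthetase, which converts the glutamate taken up from synapses, was 77.3, 73.3 and 77.8 and 522, 513, 513 and 577 CPM. Both rose with narrow spread between libraries (4.60 ± 0.20 and 2.79 ± 0.08), and the potassium channel Kcnj10 rose from 15.5 ± 3.07 to 44.4 ± 2.1 CPM. Clu (2.84), Abca8a (2.83) and Car14 (1.01) rose too. The members that fell are shared with progenitors: Slc1a3, a glutamate transporter (196 ± 11.5 to 121 ± 4.44 CPM), Vim, vimentin (197 ± 9.73 to 112 ± 5.36 CPM), Sox9 (-0.66) and Hes1 (-0.56).

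Of 20 genes of endothelium and pericytes, 8 rose and 1 fell. Flt1, a receptor of vascular endothelial growth factor, was 26, 22.9 and 23.4 CPM at P6 and 61.8, 60.4, 66.4 and 75.6 CPM at P15, whereas Kdr, the main signaling receptor, which retinal neurons and progenitors also express, was 232, 246 and 238 and 119.7, 119, 118 and 139 CPM. Flt1 thus rose and Kdr fell, with Pecam1 (0.78) and the pericyte genes Pdgfrb (1.01) and Abcc9 (1.03) risen, and Cldn5, a tight junction protein, at 5.75 ± 1.08 and 5.29 ± 0.748 CPM and not called. Among 11 genes of Norrin signaling and angiogenic factors, the Norrin receptor Fzd4 rose (0.90) and 5 fell, among them its coreceptor Lrp5 (-1.14), the tip cell ligand Dll4 (-1.35) and Angpt2 (-1.11). Vegfa was not called (246, 218 and 239 CPM at P6 and 186, 224, 259.6 and 449 CPM at P15), and its highest value lay in P15 replicate 4, without which the fold change was -0.08. Microglia and complement genes were low, at 32.0 to 34.9 CPM summed at P6 and 25.2 to 31.8 CPM at P15, and 2 of 10 fell, C1qa (-0.68) and C1qc (-0.57), neither of which was called in edgeR.

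Genes of dividing cells were lower at P15. Of 20 cell cycle genes, 17 fell and none rose, with a median of -1.01. Top2a, the topoisomerase of mitotic chromosomes, was 14.4, 16.4 and 15.4 CPM at P6 and 0.268, 0.132, 0.73 and 0.687 CPM at P15, and Cenpf, a kinetochore protein, fell from 18.4 ± 2.57 to 1.87 ± 0.475 CPM. The replication helicase genes Mcm5 (-1.59), Mcm7 (-1.44) and Mcm2 (-1.30) fell, while Ccna2, a cyclin (21.2 ± 2.69 and 23.2 ± 1.94 CPM), and Pcna, the polymerase clamp (8.19 ± 1.15 and 7.005 ± 0.236 CPM), were not called. Ccna2 shares exon bases with the opposite-strand gene Exosc9. Mki67 averaged 2259 CPM at P1, before the 64.9 CPM at P6.

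Progenitor and neurogenic factors fell in 15 of 17 cases with no rise. Ccnd1, the cyclin D1 of retinal progenitors (79.5 ± 12.6 to 15.4 ± 1.33 CPM), Notch1 (115 ± 13 to 33.9 ± 3.77 CPM) and Neurog2 (-1.90) fell, and Pax6, which amacrine and ganglion cells keep, was 458 ± 18 and 426 ± 17.7 CPM and not called. Genes of immature neurons fell in 22 of 23 cases, 16 by at least 2-fold. Tubb2b, a tubulin of growing neurites, was 96.8, 112 and 106 CPM at P6 and 5.89, 6.19, 9.25 and 12.4 CPM at P15, and Sox4, a factor of postmitotic precursors, was 444, 561 and 463 and 47.6, 53.2, 61.7 and 65.8 CPM. Both fell with separate groups, and Sox11 (-2.64), Dcx, doublecortin (-2.37), Cd24a (-3.54), the growth cone gene Gap43 (-1.26) and Stmn1 (-1.71) fell too. Map1b had a small fall (-0.26 ± 0.07) that was lost with median-of-ratios scaling, edgeR and DESeq2, and Stmn3 was not called (-0.14).

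Axon guidance genes fell in 25 of 41 cases and rose in 6. The largest fall was in Robo3, a Slit receptor relative that lets axons cross the midline, at 25.3, 27.5 and 27.6 CPM at P6 and 2.68, 2.9, 2.07 and 2.06 CPM at P15. Sema5b, a semaphorin that confines inner retinal neurites, fell from 55.6 ± 2.13 to 18.5 ± 3.61 CPM, along with Plxna3 (-1.34), Efna2 (-1.32), Epha8 (-1.25), Efnb2 (-1.16) and Ephb2 (-1.14). The rises were Sema3c (2.36 ± 0.824 to 9.86 ± 1.78 CPM), Ntn4 (0.90), Sema3e (0.77), Sema3f (0.75), Epha6 (0.71) and Epha4 (0.30). Of 11 apoptosis genes, 5 fell, 2 of them by at least 2-fold, and none rose. Among those that fell, Bcl2l1, which protects cells from death, went from 77.9 ± 2.7 to 38.1 ± 2.4 CPM, and Apaf1 (-0.80), Bcl2l11 (-0.47) and Bax (-0.56, not called in edgeR) had smaller fold changes than Bcl2l1. In chromatin and the nuclear lamina, 5 of 16 fell, among them the methyltransferase Ezh2 (77 ± 4.49 to 36.6 ± 2.67 CPM), Lmnb1 (-0.83) and the lamin B receptor Lbr (-0.45), and Dnmt3a (411 ± 8.43 to 624 ± 101 CPM), Ezh1 (0.44) and Hdac9 (0.34) rose.

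Immediate early genes, which neurons induce when active, went both ways, 4 of 16 risen and 5 fallen. Fos was 3.11, 3.24 and 2.34 CPM at P6 and 16.2, 11.9, 11.1 and 10.6 CPM at P15, and Npas4 was 1.7, 1.3 and 1.93 and 6.16, 4.35, 4.87 and 5.22 CPM. Both rose (1.77 ± 0.25 and 1.22 ± 0.22), with Nr4a3 (1.03) and Nr4a1 (0.99), while Btg2, which is also antiproliferative (244 ± 16.4 to 86.7 ± 6.59 CPM), Jun (102 ± 15.6 to 40.6 ± 2.2 CPM), Junb (-0.67), Nr4a2 (-0.54) and Egr2 (-0.52) fell. Egr1 overlapped between ages at 21.2, 30.4 and 20.8 CPM at P6 and 19.5, 20.02, 18.1 and 29.6 CPM at P15.

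Of 17 genes of the circadian clock, 12 rose and 1 fell. Hlf was 36.7, 33.6 and 35 CPM at P6 and 178, 174, 167 and 152 CPM at P15, and Dbp, like Hlf a clock output factor, was 13.8, 11.5 and 10.6 and 51.1, 52, 50.01 and 47 CPM. Per3 rose from 51.3 ± 2.53 to 204 ± 3.97 CPM, with Bhlhe40 (1.84), Per2 (1.70), Nr1d1 (1.39) and Per1 (1.30). The activator Arntl fell (83.3 ± 2.07 to 57.7 ± 3.64 CPM), and its partner Clock was level at 240.5 ± 8.24 and 242 ± 27.5 CPM. All libraries were from the afternoon, so a change of level and a change of rhythm cannot be told apart.

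Thyroid hormone signaling genes were described by the study on the same libraries, so their direction here is not independent evidence. Of 17, 6 rose and 6 fell, the latter 3 with DESeq2. Dio2, the deiodinase that activates the hormone, was 10.3, 5.52 and 6.07 CPM at P6 and 75.1, 92.8, 76.3 and 80.3 CPM at P15, and Crym, a cytosolic protein that binds the hormone, was 111, 119 and 118 and 19.7, 21.6, 25.4 and 22.7 CPM. Dio2 rose 11.1-fold and Crym fell 5.2-fold in the mean, with no overlap. Hr, a corepressor that is a hormone target elsewhere in the brain, rose from 43.8 ± 5.62 to 129 ± 21.3 CPM. Slco1c1 (1.11), a hormone transporter and a marker of vessels, Slco4a1 (0.63) and Klf9 (0.60) rose, and Slc7a5 (-0.46) and Thra (-0.43) fell, the last not with DESeq2 and sharing exon bases with the opposite-strand gene Nr1d1.

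Energy genes changed unevenly. Of 22 genes of glycolysis and energy supply, 18 rose and 2 fell, with a median of 0.69. Hk2, the hexokinase of photoreceptors, was 14.3, 13.7 and 13.9 CPM at P6 and 109, 112, 108 and 128 CPM at P15, and Slc16a1, a lactate and pyruvate transporter, was 27.6, 21.7 and 24.3 and 162, 164, 159.9 and 140.1 CPM. They rose 8.17-fold and 6.39-fold in the mean, and Aldoc (1.64), Eno2 (1.43) and Hk1 (1.03) rose, whereas Ckb, a creatine kinase, fell (-0.75). Ldha fell slightly (-0.33 ± 0.09), a call lost with median-of-ratios scaling, edgeR and DESeq2. Of 21 genes of oxidative metabolism, none changed 2-fold: 4 rose, led by the coactivator Ppargc1a (57.8 ± 2.67 to 109 ± 1.89 CPM), and 3 fell. The count that rose was 1 without P6 replicate 2 and 2 without P6 replicate 3 or P15 replicate 2, 3 or 4, and the count that fell was 0 with median-of-ratios scaling and 1 without P6 replicate 2 or 3. In cholesterol and long-chain lipid metabolism, 6 of 18 rose and 4 fell. Elovl2, an elongase of the precursors of docosahexaenoic acid, fell from 97.6, 106 and 109 to 29.2, 25.9, 27.6 and 24.1 CPM, and Adipor1, which photoreceptors need to keep that lipid, rose from 80.7, 76.7 and 72.3 to 214, 196, 206 and 224 CPM.

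The ages on either side place these values in the course of development. Pde6a averaged 1.79 CPM at P1, 136 at P6, 1281 at P15 and 1733 at P28, and Gnat1 4.23, 75, 3991 and 5912 CPM. From P1 to P6 the fold change was 5.68 for Pde6a and 3.86 for Gnat1, and from P6 to P15 it was 3.25 and 5.79. Kcnj14 was at 0.359 CPM at P1 and 0.947 at P6 before reaching 98.2 CPM at P15 and 140.1 CPM at P28. Hk2 was 14.1, 14, 114 and 259 CPM at those ages and rose again after P15 (1.17). Several genes peaked at P15 among these 4 ages: Dio2 went from 81.1 CPM at P15 to 40.1 CPM at P28 and Dnmt3a from 624 to 373 CPM, both fallen in that step. Npy (3.83, 21.2, 3.81 and 2.54 CPM) and Crym (49.8, 116, 22.3 and 13.5 CPM) were highest at P6. The steps share libraries, and their values are set side by side without a test of the difference between steps.

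**Figure D4:**
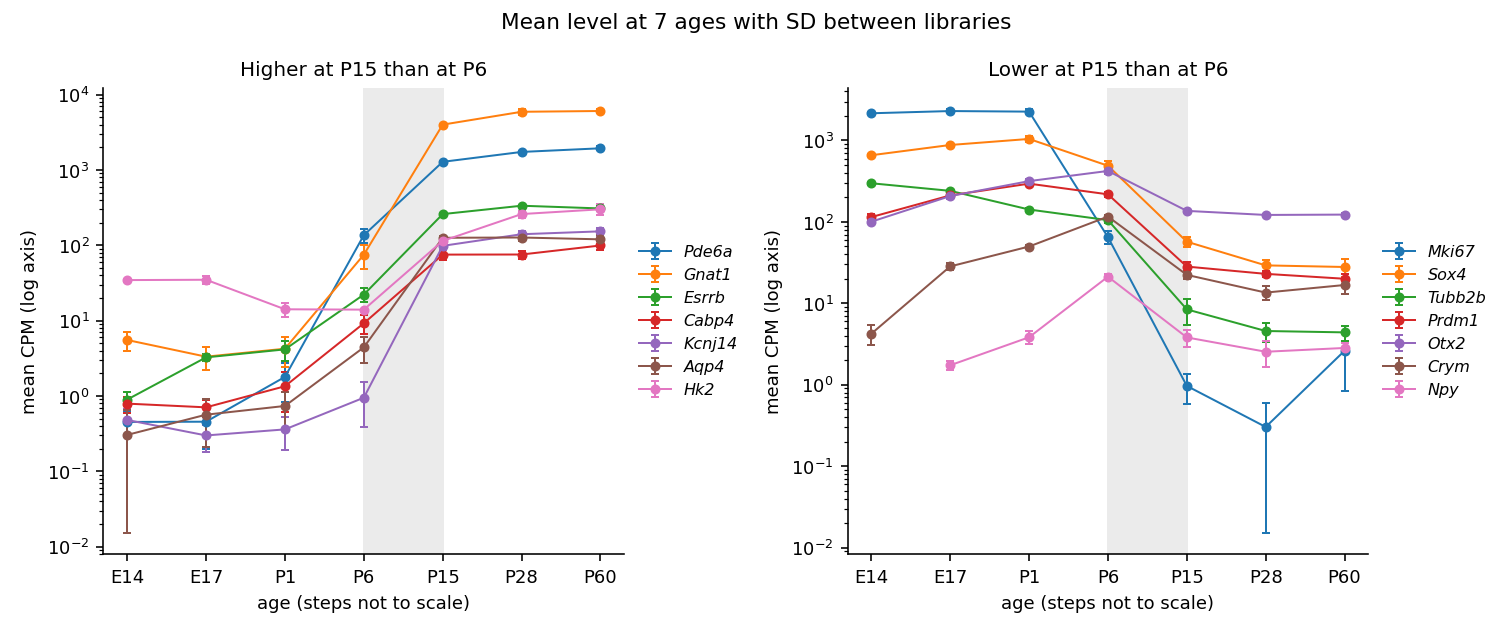
Mean CPM (log axis) with SD between libraries at 7 ages for 7 genes that rose and 7 that fell from P6 to P15 (shaded step); lower error bars are shortened where the SD is close to or above the mean, and Npy has no read at E14. Kcnj14 and Aqp4 stay under 5 CPM until P6 and are near 100 CPM or above from P15, while Npy and Crym peak at P6.

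Strand use in counting is not given in the sources used here, so reads of a gene and of an overlapping gene on the other strand could be mixed. Of the 636 list genes in the table, 142 share at least 50 exon bases with such a gene, among them Opn1sw (with Calu), Gngt2 (Abi3), Cabp4 (Gpr152), Otx2 (Otx2os1), Grm6 (Gm12660), Grin1 (Grin1os), Sox4 (Gm26735), Jun (Junos), Dbp (Sphk2), Dio2 (Gm26512) and Ccnd1 (LTO1). For these genes the levels and fold changes may be those of the pair.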

How the data were processed

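Total RNA of whole retinas was sequenced as single reads from random-primed libraries. The authors aligned reads to mm10 (GRCm38, per the labels) and obtained CPM with STAR, and deposited 1 table of CPM values for 38168 features, of which 14905 carry no Gene ID. The annotation release and strand setting of the counts are not given in the sources used here. CPM values were whole multiples of 1 read in all libraries (100% of values within 0.01 read), so reads were recovered, 7076646 to 11330762 per library. Low values are limited by these depths, and counting error is only part of the spread.

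The fit took the 31760 features that reached 1 CPM in 3 or more of the 27 libraries. Values were transformed as log2(CPM + 1) and fitted with limma 3.58.1 (R 4.3.3, moderated test with a mean trend, age as factor, all 27 libraries sharing 1 estimate of spread), and the contrast P15 minus P6 was adjusted by Benjamini-Hochberg over all features. A feature changed when the adjusted p was under 0.05 and the fold at least 2. The genes named are members of 40 lists and the 10 features with a Gene ID with the largest rise and the largest fall among those changed, with ages that do not overlap and a mean of at least 10 CPM at the higher age. For the 926 symbols with several entries, the most abundant entry was taken. The members and lists were chosen with earlier results of these data known. Alternatives were a pseudocount of 0.1, no filter, a mean of at least 10 CPM, median-of-ratios scaling, a block for replicate number, edgeR 4.0.16 and DESeq2 1.42.0 on recovered reads, the 7 libraries alone, no minimum fold, and leaving out each library. On simulated data for this comparison (31550 features, 200 changed by 1.5 on the log2 scale), limma recovered 180 with 0 false calls past both thresholds and edgeR 193 with 3. By adjusted p alone, limma and edgeR each made 10 false calls. The simulation gave all features the same dispersion and held no library apart as P15 replicate 4 is, so error rates in the data may differ. Gene positions were read from the GRCm38 annotation and promoters from RefSeq (GRCm38.p6). A few list genes and 1 of the genes with the largest falls are not reported here.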

Additional observations from a re-analysis of the deposited data

Results flagged for a closer look

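In the 4 P15 libraries, 21 of the 282 named genes had 1 library far from the other 3 (a gap beyond Dixon's 95% critical value), where chance alone puts about 1 in 20 genes past that mark, and 15 of the 21 were in P15 replicate 4. Values are CPM, with the nearest other library second, and no cause was tested. Replicate 4 was highest for Pde6b (1194 against 996.5), Pde6h (80.41 against 66.12), Cacna2d4 (552.8 against 444.7), Grin1 (87.01 against 73.75), Glra1 (32.58 against 24.58), Thy1 (84.4 against 64.01), Glul (577.4 against 521.8), Kdr (138.6 against 119.7), Egr1 (29.55 against 20.02) and Per1 (55.53 against 46.09). It was lowest for Rp1 (4495 against 4942), Cntn1 (94.02 against 111.1), Gad1 (103.8 against 109.8), Slc16a1 (140.1 against 159.9) and Egr2 (32.71 against 43.44). Of these 15 genes, the call of Egr2 was lost when replicate 4 was left out, and Egr1 was not called with or without it. In the other libraries, replicate 1 was highest for Nr4a3 (5.889 against 2.474), replicate 2 was lowest for 3110035E14Rik (1.053 against 1.46) and Pou4f1 (40.3 against 44.57), and replicate 3 was highest for Il33 (20.69 against 17.18), Scn1a (100.8 against 94.02) and Gm11546 (0.1217 against 0, a single read).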

How the results depend on the processing

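The count of 2558 changed features was 2559 with no filter on low values, 2552 with median-of-ratios scaling, 2560 with the 7 libraries alone and 2480 to 2800 when 1 library was left out. It was 4051 (2289 higher and 1762 lower) with a pseudocount of 0.1, 4146 (2604 higher) in edgeR, 4230 (2655 higher and 1575 lower) in DESeq2 and 4121 (2598 higher) in edgeR without E14 replicate 1, a setting added after the data were seen. A log2(CPM + 1) scale understates the change of low features, and of the 2558, 2506 also changed in edgeR and 2503 in DESeq2. Leaving out 1 library kept 2295 to 2427 of the 2558. With a mean of at least 10 CPM, where fewer features were tested, 1329 changed (697 higher and 632 lower), and with no minimum fold 10610 were called (4573 higher and 6037 lower). The share of higher features among calls by adjusted p was 43.1%, and 51.6% with median-of-ratios scaling, 51.0% in edgeR and 51.2% in DESeq2, and with the 2-fold limit 58.9%, 65.7%, 62.8% and 62.8%. Same-numbered P6 and P15 libraries did not deviate together (r = -0.036, -0.0035 and 0.037 across features), so the numbers were not taken to pair them, and with the replicate number as a block 2553 features changed. Of the 618 list genes tested, 423 were called and 372 of these were called under each of these settings that tested them, edgeR without E14 replicate 1 aside. No named gene changed sign where the main fit or the alternative called it. Changes of sign in genes called by neither fit, such as Vegfa, were not counted. When 1 library was left out, 18, 30 and 31 of the 423 calls were lost without P6 replicates 1, 2 and 3, and 14, 19, 12 and 13 without P15 replicates 1 to 4. Among the genes named in the text these were Bax, C1qc, Epha4, Gja1, Gja10, Gnb3, Impg2 and Pou4f1 without P6 replicate 1, C1qa, C1qc, Chrna4, Egr2, Gja1, Gja10, Gnb3, Mtnr1a, Pou4f1, Sdk2 and Slco4a1 without P6 replicate 2, and Bax, C1qa, C1qc, Gja1, Grik4, Mtnr1a, Pdc, Sdk2 and Slco4a1 without P6 replicate 3. For P15 they were Bax, C1qc, Gja1 and Mtnr1a without replicate 1, Bax, C1qc, Gja10, Mtnr1a, Sdk2 and Slco4a1 without replicate 2, Bax, Gja10 and Sdk2 without replicate 3, and C1qa, Egr2, Gja1, Mtnr1a and Sdk2 without replicate 4. The cause of these losses was not tested. With 3 and 4 pools per age, small changes are limited by the spread between libraries, and genes under about 1 CPM rest on a few reads.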

Other observations

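Beyond the lists, a set of genes with large changes at P15 was picked after their values were seen, and they are given as values without a group. Slc6a6, the taurine transporter, was 213, 185 and 181 CPM at P6 and 1213, 1270.5, 1247 and 1386 CPM at P15 (log2 fold change 2.72 ± 0.09, limma). Vtn, vitronectin, rose from 8.32 ± 0.868 to 112 ± 3.61 CPM (SD, n = 3 and 4 libraries), and the growth factors Fgf1 (4.26 ± 0.951 to 37.8 ± 3.26 CPM) and Fgf2 (4.87 ± 0.755 to 28.5 ± 1.92 CPM) rose, Fgf2 sharing exon bases with the opposite-strand gene Nudt6. Il33, an alarmin stored in nuclei of glia, went from 0.848, 0.757 and 0.965 to 16.9, 16.7, 20.7 and 17.2 CPM, and Alpl, alkaline phosphatase, from 17.7 ± 1.88 to 108 ± 14.8 CPM. All 6 had every P15 library above every P6 library, as did 18.4% of all features tested (24.3% had every P15 library below).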
